A study of Caenorhabditis elegans with 2 samples.

Results

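The aminoacyl-tRNA synthetase genes and the genes of the translation initiation and elongation factors of Caenorhabditis elegans were examined for peaks of the transcription factor UNC-86 in late embryos. The genes were chosen by symbol, in the form of any letter followed by ars-1 or ars-2 for the synthetases and with the prefixes eif-, ife-, iff-, ifg- or eef- for the factors. In the Ensembl annotation of WBcel235, 70 of the 19973 protein-coding genes on the nuclear chromosomes matched, 31 synthetase genes and 39 factor genes. The chromatin came from whole hermaphrodite embryos of strain OP476, collected 3.5 hours after synchronization by egg bleaching. Every animal carried the unc-119(tm4063) allele on chromosome III and the transgene wgIs476, which expresses UNC-86 with GFP and FLAG at its C-terminus, and the precipitating antibody was directed against GFP. The 2 libraries are biological replicates 1 and 2 of 1 group, so no condition was compared with another and no p-value is given. Embryos were taken whole, so the values do not tell in which cells a gene was bound.

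Aminoacyl-tRNA synthetases attach each amino acid to its tRNA. Cytoplasm and mitochondria each need a set, and in C. elegans some amino acids have a gene for each compartment while others have a gene whose products serve both or whose mitochondrial partner carries another name. Initiation factors bring the initiator tRNA (eIF2, recharged by eIF2B), the mRNA cap (eIF4E and eIF4G) and the small ribosomal subunit (eIF3) together. Elongation factor 1A then delivers aminoacyl-tRNAs to the ribosome, eEF1B recycles it, and eEF2 moves the ribosome along the mRNA. All cells need these proteins. UNC-86 is a POU homeodomain factor known for the specification of neurons.

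The deposited data are lists of peaks. Signal is the value the authors' peak caller gave each peak, and a rank is the place of a peak by signal within its list. The list of peaks past the threshold of the irreproducible discovery rate (IDR) held 816 peaks with signals from 64.7 to 838 (median 90.9). The list called on both replicates together, here the pooled list, held 12784 peaks from a signal of 25.6 upwards (median 31.8), most of them weak. It was named by the submitters as peaks and background for input to IDR, so an entry in it need not be a bound site. The list of replicate 1 held 17498 peaks and that of replicate 2 18470, and the peak at rank 816 had a signal of 35.4 in replicate 1 and 34.3 in replicate 2. The number of reads behind these values was not given in the sources used here. A gene was counted as having a peak when a summit lay within 2 kb of any of its transcript starts. Signals of the replicate lists and of the pooled list are not on a common scale. The IDR peaks at the genes examined had the same signal in the pooled list, so signals of the IDR and pooled lists can be set side by side. The 95% Wilson intervals of shares cover counting error over genes only.

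The share of translation genes with an IDR peak was above that of all protein-coding genes, and the counts by class are given with their intervals because no test between classes was made. Of the 70 genes, 16 (22.9%, interval 14.6 to 34.0) had an IDR summit within 2 kb, where 5.65% of all protein-coding genes had one. Among elongation factors the count was 4 of 6, among initiation factors 6 of 33, and among synthetases 6 of 31. Factors were classed by symbol and not by function, with eef- as elongation and the other prefixes as initiation. The eIF5A genes iff-1 and iff-2 and the gene eif-4A3 therefore count as initiation. The synthetases divided further into 1 of 11 cytoplasmic genes, 2 of 12 mitochondrial genes and 3 of 8 genes in a class of genes without a partner of the same letter. RefSeq names 4 of these 8 genes cytoplasmic, among them mars-1 and tars-1, which had an IDR summit. The count of the cytoplasmic class (9.09%, beside 5.65% of all genes) therefore depends on these genes being set apart. The valine gene vars-1 also has no partner under the rule, since the other valine gene is named glp-4, and it was counted as mitochondrial. In the class of 8, the peaks of tars-1 (signal 71.6) and kars-1 (66.7) were below the median IDR signal of 90.9. That of mars-1 (97.9) was above it. Among the 816 strongest peaks of replicate 1 the class had 2 of 8 (all genes 5.52%). It had 1 of 8 among those of replicate 2 (5.30%) and 1 of 8 among the 408 strongest IDR peaks (2.88%). With so few genes in a class the intervals are broad, from 1.62 to 37.7% for cytoplasmic, 4.70 to 44.8% for mitochondrial, 13.7 to 69.4% for the unpaired, 8.61 to 34.4% for initiation and 30 to 90.3% for elongation genes. All of these overlap. The intervals of the cytoplasmic and mitochondrial synthetases overlap over most of their length, and both hold the share of all genes.

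**Figure D1:**
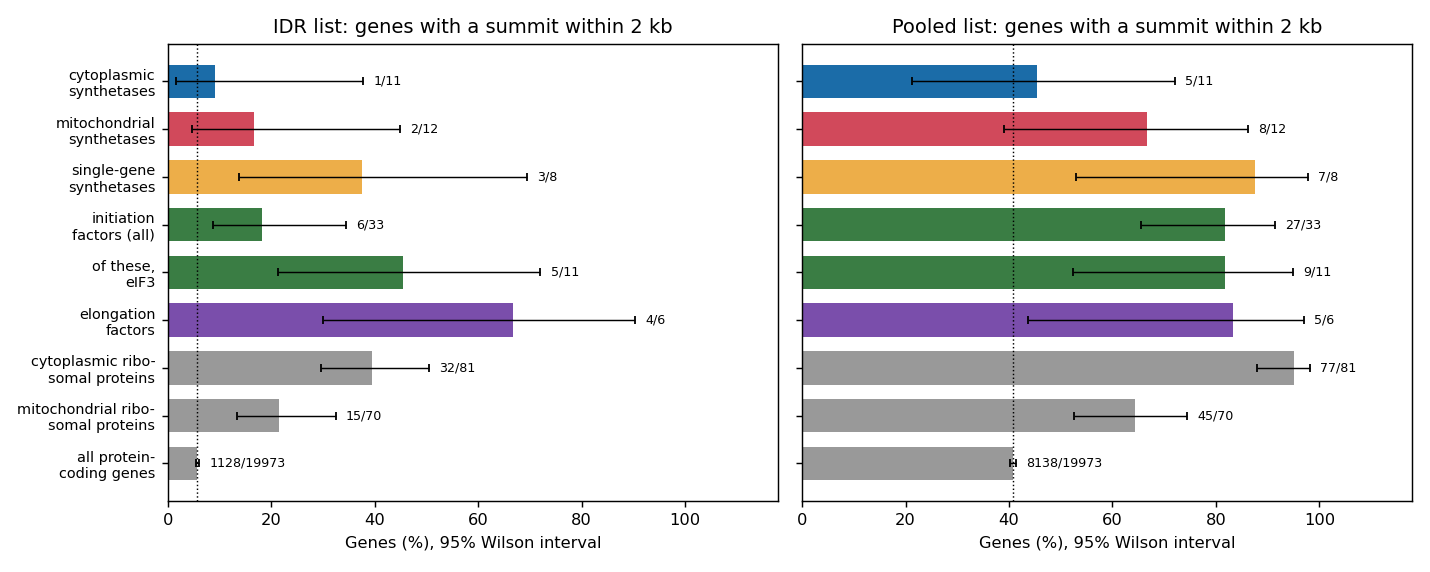
Share of genes with a summit within 2 kb of a transcript start (x axis, percent) for each class of translation genes and, in grey, ribosomal protein genes and all protein-coding genes, in the IDR list (left) and the pooled list (right). Bars are shares, whiskers 95% Wilson intervals, the dotted line marks all protein-coding genes and the fractions give the genes counted; elongation factors stand at 4 of 6 and cytoplasmic synthetases at 1 of 11 in the IDR list.

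Ribosomal protein genes, taken by symbol, give a second reference. Cytoplasmic ribosomal protein genes had an IDR summit in 32 of 81 cases (39.5%, interval 29.6 to 50.4) and mitochondrial ribosomal protein genes in 15 of 70 (21.4%, interval 13.4 to 32.4). The share of the synthetase and factor genes, 22.9%, lay between these values and nearer to the latter, and no test of the difference was made. This placement depends on the rule. With each summit given only to the gene of its nearest start, the synthetase and factor genes stood at 17.1%. Cytoplasmic ribosomal protein genes then stood at 18.5%, mitochondrial ones at 11.4% and all genes at 3.23%, so the former were nearer.

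The count of synthetase and factor genes changed little with the distance allowed. Within 1 kb of a start 14 of 70 had an IDR summit (4.07% of all genes), and within 500 bp the count was again 14 (3.12% of all genes). Measured from the outermost start alone it was 16 (5.38%). Among the 408 strongest IDR peaks it was 9 (2.88%), and 10 genes had a summit among the 816 strongest peaks of both replicates (3.72%).

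The strongest peak at any of these genes was that of ears-2, which encodes the mitochondrial glutamyl-tRNA synthetase. It lay at chrIV:390344-390645 with a signal of 374.6 and rank 11 of 816, and its summit was 42 bp upstream of the transcript start. In replicate 1 the peak had a signal of 199 and rank 8, and in replicate 2 a signal of 169 and rank 11. The gap between ears-2 and its divergent neighbour uncp-18 is only 91 bp, so both genes have this summit within reach of their starts.

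Other strong peaks at synthetase and factor genes had lower signals. The next was at eif-3.C, a core subunit of eIF3, with a signal of 173 and rank 110, in the 400 bp between the gene and its neighbour and 248 bp upstream of the start. It had a signal of 90.5 and rank 105 in replicate 1, and of 83.0 and rank 121 in replicate 2. The third was at iff-2, which encodes the form 5A-2 of eIF5A, a factor that carries the modified residue hypusine and helps the ribosome over difficult peptide bonds. Its summit was 93 bp upstream of the start, with a signal of 131 and rank 189 in the IDR list, of 74.9 and rank 158 in replicate 1, and of 56.4 and rank 260 in replicate 2.

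**Figure D2:**
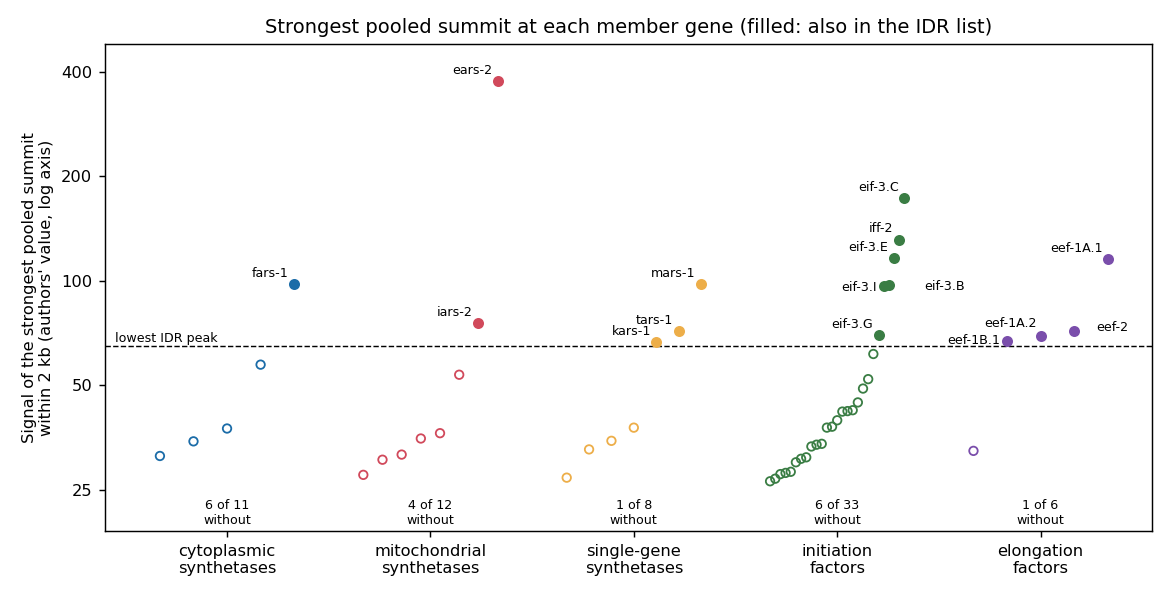
Signal of the strongest pooled summit within 2 kb of each gene (y axis, the authors' value, logarithmic), by class; filled points are also in the IDR list, open points are not, and the number of genes without a pooled summit stands below each class. The dashed line is the lowest IDR signal, 64.7; ears-2 stands at 374.6 and the next gene, eif-3.C, at 173.

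The bases under the summits are shown for the strongest peak of each class outside the first chromosome and for eif-3.B, as an eIF3 subunit, so that promoters with strong and moderate peaks can be read side by side. No sequence is given for the cytoplasmic class, whose only peak lies on that chromosome. Each is the stretch without annotated exons around the summit, at most 100 bp to each side, in build ce11 (RefSeq assembly WBcel235), written 5′ to 3′ on the strand of the gene, and the capitals are the 11 bases centred on the summit. The ears-2 stretch is the whole gap of 91 bp to uncp-18, chrIV:390469-390559 on the minus strand. That of iff-2 is chrII:8561368-8561560 on the minus strand, that of eef-1A.1 chrIII:6972086-6972210 on the minus strand, that of mars-1 chrIV:11635704-11635904 on the minus strand and that of eif-3.B chrII:14795089-14795289 on the plus strand.
ears-2: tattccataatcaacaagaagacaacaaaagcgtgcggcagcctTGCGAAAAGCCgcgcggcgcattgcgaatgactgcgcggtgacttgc
iff-2: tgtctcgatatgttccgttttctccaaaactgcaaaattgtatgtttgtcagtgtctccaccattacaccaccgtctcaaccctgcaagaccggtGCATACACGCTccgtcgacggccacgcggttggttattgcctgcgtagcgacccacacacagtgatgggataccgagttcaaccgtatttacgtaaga
eef-1A.1: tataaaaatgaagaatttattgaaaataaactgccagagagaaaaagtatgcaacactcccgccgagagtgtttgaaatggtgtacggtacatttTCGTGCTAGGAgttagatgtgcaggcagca
mars-1: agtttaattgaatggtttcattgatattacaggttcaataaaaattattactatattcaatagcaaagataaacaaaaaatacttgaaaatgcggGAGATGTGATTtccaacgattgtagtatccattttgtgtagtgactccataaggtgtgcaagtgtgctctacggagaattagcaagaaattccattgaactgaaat
eif-3.B: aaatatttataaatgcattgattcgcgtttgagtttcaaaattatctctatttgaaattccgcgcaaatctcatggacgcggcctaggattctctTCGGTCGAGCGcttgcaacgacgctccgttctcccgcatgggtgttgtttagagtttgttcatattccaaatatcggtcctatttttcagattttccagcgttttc

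These stretches ranged widely in base composition, from a GC content of 31.3% at mars-1 through 39.2% at eef-1A.1, 41.3% at eif-3.B and 50.3% at iff-2 to 53.8% at ears-2. Windows of 100 bp to each side of all 17 distinct IDR summits at these genes had a mean GC content of 41.9%, against 44.2% for all 816 IDR summits and 36.6% for all pooled summits. Sites of the POU class were not among their letters. The class IV site, spelled ATAATTAAT, was in 0 of the 17 windows and in 2 of 816 IDR windows (0.245%), and the octamer, spelled ATGCAAAT, in 0 of 17 and 9 of 816 (1.1%), on either strand. The homeodomain core TAATTA, which the class IV site contains, was in 0 of 17 windows and in 6.37% of IDR windows. With 17 windows, an absence of patterns this rare in the whole list says little. The E box CAGCTG was in 1 of the 17 windows, the upstream one of eif-3.I, and in 5.51% of IDR windows. The GAGA repeat, spelled GAGAGA, was in 2 windows, those of eef-1A.1 and eef-1A.2, and in 29.4% of IDR windows and 15.6% of pooled windows.

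In the IDR list, ears-2 was the only synthetase gene of a cytoplasmic and mitochondrial pair with a summit within 1 kb of its start. For the mitochondrial class, the other gene counted was iars-2, an isoleucyl-tRNA synthetase gene put in this class by its symbol. Its summit, with a signal of 75.4 and rank 590 (replicate 1, 36.9 and rank 746; replicate 2, 37.2 and rank 678), lay 1801 bp upstream in an intron of fath-1 and was closest to the start of C25A1.16, at 583 bp. For the cytoplasmic class, the gene counted was fars-1, which encodes a subunit of the phenylalanyl-tRNA synthetase. Its summit lay inside the gene, in an intron, 1390 bp downstream of the closest of its 4 starts and 66 bp from the midpoint of the snoRNA gene T08B2.13. The signal was 97.9 with rank 346 (replicate 1, 50.4 and rank 373; replicate 2, 48.7 and rank 345), and the values were alike in both replicates. The nearest protein-coding start was that of mrpl-23, at 941 bp. When each summit was given only to the gene of its nearest start, 0 of 11 cytoplasmic and 1 of 12 mitochondrial synthetase genes were left, beside 3.23% of all genes.

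Of the 8 unpaired synthetase genes, 3 had an IDR peak. At mars-1, the methionyl-tRNA synthetase gene, the summit was 317 bp upstream of the start, with a signal of 97.9 and rank 349. Replicate 1 gave it a signal of 65.1 and rank 221 and replicate 2 a signal of 37.4 and rank 662. At kars-1, for lysine, the summit was 329 bp upstream with a signal of 66.7 and rank 771, near the lower end of the list. Replicate 2 had it with a signal of 34.2 and rank 817, and replicate 1 had no summit within 100 bp, its strongest being 503 bp upstream with a signal of 34.3 and rank 881. At tars-1, for threonine, the summit lay in an intron, 387 bp upstream of an internal start and 977 bp downstream of the outermost one. It had a signal of 71.6 and rank 667 (replicate 1, 38.9 and rank 660; replicate 2, 29.9 and rank 1189), and the overlapping gene kel-1 had its start closer, at 148 bp.

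The 6 initiation factor genes with an IDR peak were 5 of the 11 subunit genes of eIF3 matched by symbol and iff-2. The 20 genes in the other groups of initiation factors had none, a count near that of all genes (5.65%), among them the 3 genes of eIF2, the 5 of eIF2B, the 5 eIF4E genes and the eIF4G gene ifg-1. The eIF3 peaks all lay upstream of a start of their own gene. That of eif-3.E was 186 bp upstream with a signal of 116 and rank 244 (replicate 1, 63.8 and rank 227). In replicate 2 the summit within 100 bp had a signal of 28.0 and rank 1524, and a stronger one of 50.5 and rank 323 lay 77 bp upstream of the start. That of eif-3.B was 215 bp upstream, with a signal of 97.5 and rank 354 (replicate 1, 52.1 and rank 349; replicate 2, 47.95 and rank 359). The gene eif-3.I had 2 peaks, 1 between genes at 229 bp upstream of the outermost start (signal 88.4, rank 429) and 1 in an intron at 491 bp upstream of an internal start (signal 96.7, rank 361). The former had signals of 39.7 and 44.1 in replicates 1 and 2, the latter 52.8 and 43.7.

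The fifth eIF3 gene, eif-3.G, was stronger in replicate 2. Its summit 356 bp upstream of the start had a signal of 69.9 and rank 702 in the IDR list, of 46.5 and rank 388 in replicate 2, but of 24.8 and rank 2105 in replicate 1. The subunit genes without an IDR peak ranged from eif-3.H, with a pooled signal of 52.1 and rank 1350 at 258 bp upstream, and eif-3.D, with 42.2 and rank 2331 at 270 bp upstream, to eif-3.K, with a replicate 1 summit alone (signal 16.8), and eif-3.L, without a summit in any list. The remaining subunits of the complex carry other symbols and were added after the values were seen. They had pooled summits but no IDR summit: egl-45, for subunit A, had a signal of 45.1 at 444 bp upstream, and cif-1, a subunit shared with the signalosome, had 53.7 at a summit 1882 bp upstream, which is that of yars-2.

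Elongation factor genes had the highest share, 4 of 6, but this count rested on replicate 1. At eef-1A.1, also known as eft-3 and widely used as the source of a strong promoter, the summit was 398 bp upstream with a signal of 115.3 and rank 248. It had a signal of 61.2 and rank 243 in replicate 1, and of 51.1 and rank 316 in replicate 2. It lay between genes, 80 bp from the midpoint of the miRNA gene cel-mir-5549, and was closer to the start of the divergent gene rfc-4, at 143 bp. At eef-2 the summit was 5 bp downstream of the start, in a non-coding part of an exon, with a signal of 71.6 and rank 668 (replicate 1, 38.6 and rank 670; replicate 2, 34.1 and rank 827).

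The remaining elongation peaks were weaker in replicate 2. At eef-1A.2, the second eEF1A gene, the summit was 388 bp upstream with a signal of 69.4 and rank 709, and no other gene had a start within 2 kb. Replicate 1 gave 43.8 and rank 503, and replicate 2 gave 29.6 and rank 1234. At eef-1B.1, for a subunit of the exchange factor eEF1B, the summit was 10 bp upstream with a signal of 67.1 and rank 760, of 39.0 and rank 653 in replicate 1, and of 23.8 and rank 2785 in replicate 2. Among the 816 strongest peaks of replicate 2 alone, 1 of the 6 genes had a summit, eef-1A.1, while replicate 1 alone kept 4 of 6 (background shares of all genes 5.30% and 5.52%). Of the genes without an IDR peak, eef-1B.2 had a pooled summit 11 bp downstream of a start (signal 32.4, rank 5954). The gene eef-1G had none in the pooled list or in replicate 2, and a summit 19 bp upstream in replicate 1 (signal 27.1, rank 1611).

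**Figure D3:**
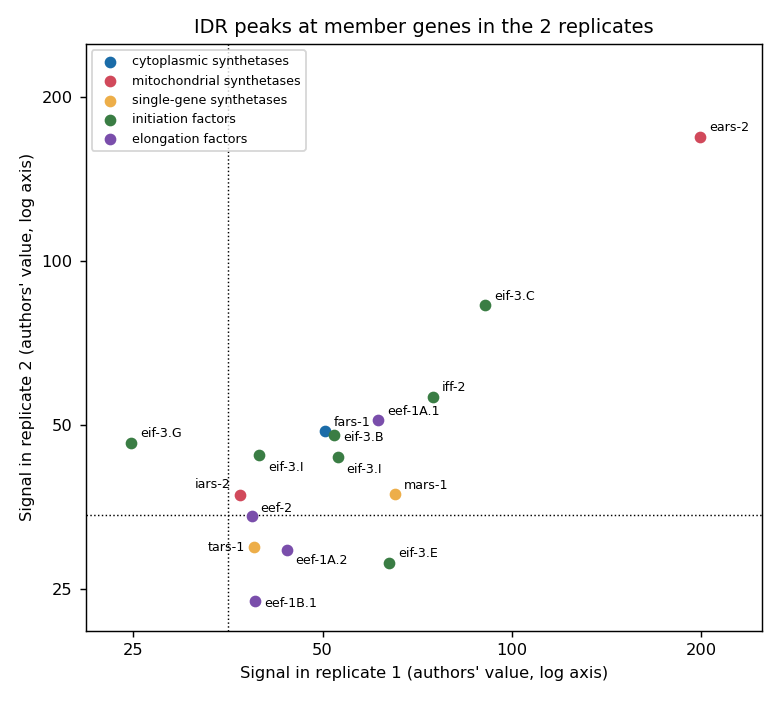
Signal in replicate 1 (x axis) and replicate 2 (y axis) of the 16 distinct IDR peaks at translation genes with a summit within 100 bp in both replicates (authors' values, logarithmic axes), coloured by class; dotted lines mark the signals at rank 816, 35.4 and 34.3. The peak of ears-2 is highest on both axes, eif-3.G lies low on the x axis, and eef-1A.2, eef-1B.1, tars-1, eif-3.E and, narrowly, eef-2 lie below the line of replicate 2.

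Taken by peak, 17 distinct IDR peaks lay at the 16 genes, with a median signal of 96.7. All 17 had a summit within 100 bp in replicate 2 and 16 in replicate 1. Among the 816 strongest of each replicate were 15 in replicate 1 and 11 in replicate 2, and 10 were among the strongest of both (497 of all 816 IDR peaks, 60.9%, were). These 10 were the peaks of ears-2, eif-3.C, iff-2, eef-1A.1, eif-3.B, both of eif-3.I, fars-1, mars-1 and iars-2. Over the 16 peaks matched in both replicates, Spearman's rho between their signals was 0.55, and Pearson's r between log2 signals was 0.77. Without ears-2 the values were 0.45 and 0.48 over 15 peaks, so r rests in large part on that peak. The replicates entered the IDR list, and the peaks are sites of the same 2 libraries.

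Most of the summits sat close upstream of a start of the gene they were counted for. The share of all IDR peaks this close to a start is not given here. Of the 17, 14 were 1 to 500 bp upstream of a start of the gene and 1, at eef-2, was 5 bp downstream, leaving iars-2 and fars-1 farther off. The nearest protein-coding start belonged to the gene itself for 13 summits, at 5 to 491 bp (median 229). For fars-1 and iars-2, and for eef-1A.1 and tars-1 within 500 bp, the start of another gene was closer. Between genes lay 12 of 17 and in introns 4, and for all IDR peaks the shares were 72.7% and 22.8%. A tRNA, snoRNA, snRNA or miRNA gene within 300 bp was found for 2 of 17 summits, those of fars-1 and eef-1A.1, whereas 26.2% of all IDR summits had one. Without all such summits, 14 of the 70 genes had an IDR summit, beside 4.72% of all genes.

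**Figure D4:**
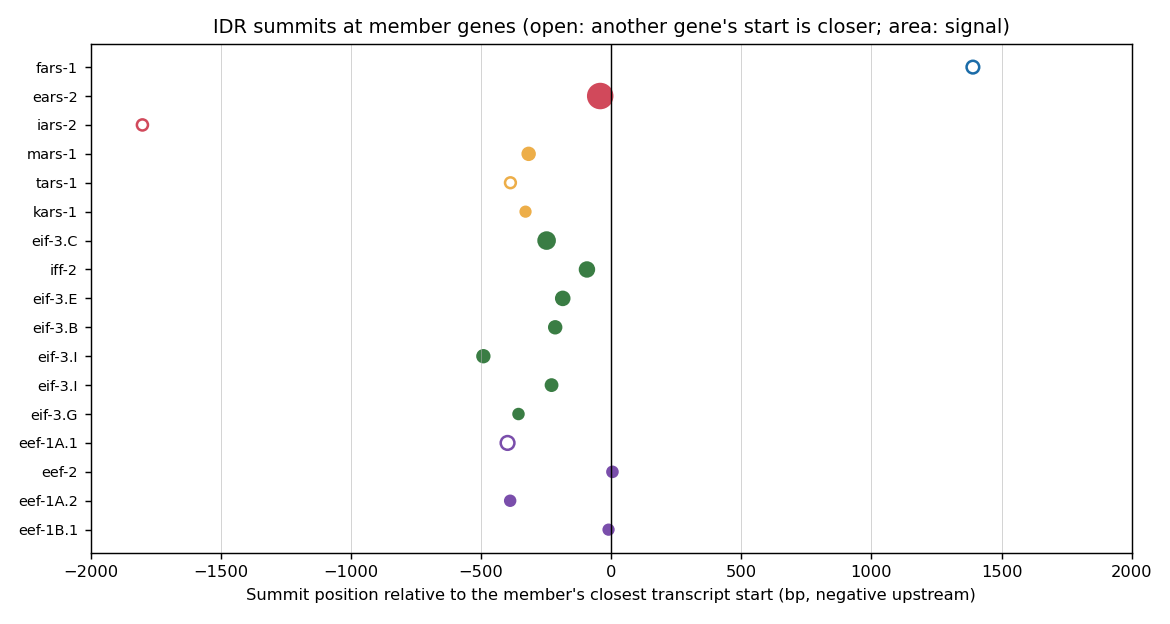
Position of the 17 IDR summits relative to the closest transcript start of the translation gene (x axis, bp, negative upstream), 1 row per peak ordered by class and signal. The area of a point is proportional to signal, and open points have the start of another gene closer; 14 points lie within 500 bp upstream, and fars-1 and iars-2 lie at 1390 bp downstream and 1801 bp upstream.

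Translation genes often lie close to a neighbour, and a summit can then serve several starts. The room upstream of the outermost start to the next protein-coding gene had a median of 411 bp in the 70 genes and 936 bp in all protein-coding genes, and it was under 500 bp in 39 of 70 (55.7%) against 33.7%. The upstream neighbour was divergent in 37 of 70 genes (52.9%), 42.2% of all genes and 58.3% of the 1128 genes with an IDR summit. Of the 17 summits, 4 had no start of another protein-coding gene within 2 kb, those of eif-3.B, eif-3.C, eef-1A.2 and the intronic one of eif-3.I. Among genes with less than 500 bp of room, 8 of 39 translation genes (20.5%) and 7.87% of all genes had an IDR summit. From 500 bp to under 1 kb of room the figures were 4 of 18 (22.2%) and 6.29%, from 1 kb to under 2 kb 2 of 5 and 4.76%, and at 2 kb or more 2 of 8 and 3.37%. With synthetases and factors counted jointly, the share lay above that of all genes in each of these ranges of room. The last ranges rest on 5 and 8 translation genes. Synthetases alone had an IDR summit at 0 of 6 genes from 500 bp to under 1 kb and at 0 of 3 with 2 kb or more. Factors alone stood at 0 of 1 from 1 kb to under 2 kb. In order of room, the other counts were 4 of 18 and 2 of 4 for synthetases. For factors they were 4 of 21, 4 of 12 and 2 of 5. Whether room accounts for the shares was not tested.

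The pooled list, which holds background as well as peaks, reached far more of the genes. In the pooled list, 52 of 70 genes (74.3%, interval 63.0 to 83.1) had a summit within 2 kb, beside 40.7% of all protein-coding genes. By class these were 5 of 11 cytoplasmic, 8 of 12 mitochondrial and 7 of 8 unpaired synthetases, 27 of 33 initiation factors and 5 of 6 elongation factors. In replicate 1 the count was 54 of 70 (50.7% of all genes), in replicate 2 also 54 (52.6% of all genes), and 44 genes (62.9%) had a summit in both replicates and the pooled list (29.9% of all genes). The strongest pooled summit had a median signal of 38.8 over the 52 genes and 34.9 over all genes with one.

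Without an IDR summit, 36 genes had a pooled one, with signals from 26.5 to 61.5 and a median of 34.2, nearer to the lowest pooled signal of 25.6 than to the lowest IDR signal of 64.7. The highest was eif-2D, a factor that can deliver initiator tRNA without eIF2, with 61.5 and rank 926 at 144 bp upstream (replicate 1, 25.2 and rank 1987; replicate 2, 35.3 and rank 753). The cytoplasmic asparaginyl-tRNA synthetase gene nars-1 followed with 57.4 and rank 1067 at 303 bp upstream. Next was the tyrosyl gene yars-2, mitochondrial by its symbol, with 53.7 and rank 1249 at 13 bp upstream. These 3 had a −log10 q over 1 in the pooled list and the other 33 did not. Within 500 bp of a start lay 22 of the 36 summits. The strongest in the remaining groups were wars-1 (37.8) for the unpaired synthetases, eif-2Bdelta (49.0, at 70 bp upstream) for eIF2B, eif-2gamma (42.4, at 1698 bp downstream) for eIF2, eif-1.A (44.7, at 378 bp upstream) for eIF1 and eIF1A, ife-5 (38.0) for eIF4 and eif-6 (30.7) for the subunit anti-association factor eIF6.

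At 18 genes no pooled summit lay within 2 kb. Of these, 9 also had none in either replicate: the cytoplasmic synthetase genes aars-2, ears-1, iars-1, lars-1 and sars-1, the mitochondrial lars-2, and eif-2Bepsilon, eif-3.L and ifg-1. Their nearest pooled summit was 2.61 to 13.6 kb away, and 5 of the 9 had less than 500 bp of room upstream. Such genes were 12.9% of the 70, whereas 31.4% of all protein-coding genes had no summit in any list. With 5 of 11, the cytoplasmic synthetases lay above the share of all genes, while the translation genes as a whole lay below it. The 4 unpaired genes that RefSeq names cytoplasmic, cars-1, mars-1, tars-1 and wars-1, all had a summit in at least 1 list. With them counted, the cytoplasmic share would be lower and nearer to that of all genes. The class is small and no test was made. The other 9, with a summit in at least 1 replicate, were aars-1, dars-2, rars-2, pars-1, cars-1, eef-1G, eif-2beta, eif-3.K and ife-1. The glutamyl-tRNA synthetase genes differed, with the IDR peak of rank 11 at the mitochondrial gene ears-2. No summit in any list lay at ears-1, which is cytoplasmic by its symbol.

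Further genes of translation were taken from lists of symbols outside the rule. Of 14 further initiation genes 4 had an IDR summit, beside 5.65% of all protein-coding genes. At ifet-1, for a protein that binds eIF4E, it was 504 bp upstream (signal 193) and closer to rps-1, at 264 bp. At drr-2, for a protein like eIF4H, it was 153 bp upstream (signal 111). At abcf-2 it was 891 bp upstream (signal 96.3) and 34 bp from the start of ant-1.1, and at the poly(A)-binding protein gene pab-2 it was 200 bp upstream (signal 70.2). Of 7 elongation and release genes 1 had an IDR summit, erfa-3, for the release factor eRF3 (signal 127, 237 bp upstream). Of 6 mitochondrial translation genes 1 had one, gfm-1, for a mitochondrial elongation factor G (signal 66.6, 150 bp upstream, rank 387 in replicate 2 and 4541 in replicate 1).

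Neither of the further synthetase genes had an IDR summit: fars-3, for the beta subunit of the phenylalanyl enzyme, had a pooled signal of 40.8 at 167 bp upstream, and glp-4, for valine, 28.7 at 447 bp upstream. A list drawn up for RNA polymerase III and its factors, which transcribe tRNA genes, matched 13 genes. It is broader than that, since it includes rpoa-1 and rpoa-2, of RNA polymerase I, and the snpc genes snpc-1.1 and snpc-4. None of the 13 had an IDR summit, where 5.65% of all genes had one, so that 0 of 13 is near the background. A pooled summit was found at 4 of 13 (30.8%), beside 40.7% of all genes.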

How the data were processed

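ChIP-seq with an antibody to GFP was carried out by the submitters on 2 replicates. The deposited ce11 lists in narrowPeak format give each peak a signal value and a −log10 q value. The IDR list was made by the authors from both replicate lists and the pooled list, and a control file entered each call, per the file headers. Which caller, aligner and IDR threshold were used, and the depth, was not given in the sources used here. The ce10 lists were not used, because the annotation is of ce11 (WBcel235), and no coordinate was converted.

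Summits were taken as column 2 plus column 10, written 1-based, and joined to all annotated transcript starts within 2 kb. The join was tested on simulated data. Peaks of different lists were matched within 100 bp, and small RNA genes by their midpoint within 300 bp. Synthetases were put in compartments by symbol, suffix 1 cytoplasmic and suffix 2 mitochondrial, with aars and vars exchanged. These were 11 cytoplasmic and 12 mitochondrial genes. RefSeq names gave a compartment for only 10 of them, the same in all 10. For the others, among them ears-1, fars-1, iars-2, vars-1 and yars-2, the compartment rests on the symbol rule alone. Of the 8 unpaired genes, RefSeq names 4 cytoplasmic.

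The genes, lists and comparisons were chosen with earlier results of these data known, so no test and no p-value is given. Named were all genes with an IDR peak, the strongest pooled summit of each class, genes without a pooled summit and listed genes with an IDR peak. Of the fixed list symbols, 2 of 4 further synthetase, 14 of 14 initiation, 7 of 10 elongation and release, 6 of 11 mitochondrial and 13 of 19 polymerase symbols matched. The 3 genes added after values were seen were egl-45, cif-1 and C37C3.2. The sequence patterns were those used in earlier work on these data. Python 3.11.15, numpy 2.4.6, pandas 2.3.3, statsmodels 0.14.6 and matplotlib 3.10.9 were used.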

Additional observations from a re-analysis of the deposited data

How the results depend on the processing

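The count of 16 translation genes with an IDR summit stayed within 1.5 times under the other distances, starts and assignments tried (12 to 16 genes), and was 9 with the 408 strongest IDR peaks and 52 with all pooled peaks. With the 816 strongest peaks of a single replicate it was 12 to 14. The share of all protein-coding genes was 5.65% in the IDR list, 2.88% with its 408 strongest peaks and 40.7% with all pooled peaks. It was 5.52% with the strongest peaks of replicate 1 and 5.30% with those of replicate 2. The cytoplasmic count of 1 fell to 0 at 1 kb, at 500 bp, with the nearest start only and without summits at small RNA genes. It was 5 of 11 with all pooled peaks (45.5%, near the share of all genes), 4 of 20 when genes were classed by suffix alone, and 1 in each replicate. The mitochondrial count of 2 was 1 at 1 kb, at 500 bp, with the nearest start only and in the 408 strongest peaks, 8 with all pooled peaks, and 2 in each replicate. Initiation factors numbered 27 with all pooled peaks and 5 to 7 in the replicates. Elongation factors numbered 1 in the 408 strongest peaks and 1 to 4 in the replicates, with 1 when replicate 1 was left out. Unpaired synthetases, 3 of 8 in the IDR list, numbered 1 to 2 in the replicates. The causes were not tested. Of the 16 genes, 14 kept their strongest summit at 500 bp and 12 with the nearest start only, and the others had none left. Unknown depth, short lists of genes and a common set of 2 libraries limit all shares, and no group without the tagged protein was analysed here.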
